A study of Homo sapiens with 4 samples.

Results

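THE1 elements are long terminal repeat (LTR) retrotransposons whose copies are spread over primate genomes. They were described here in the 4 single-cell libraries of a study of 2 human cancer cell lines under combined inhibition of DNA methyltransferases and histone deacetylases. A THE1 row was any row of the table of transposable element (TE) counts whose name begins with THE1, and the rule used no measured value. It found 9070 THE1 loci among 261609 TE loci, each with a count in some library, so copies without any count are not included. They fell under 6 family names: 3913 of THE1B, 1924 of THE1D, 1776 of THE1C, 875 of THE1A, 348 of THE1-int and 234 of THE1D-int. Each row is named by family, then position, then locus, the last 2 as numbers. What these numbers stand for is stated in no source used here, and the loci carry no genome coordinates, so they were not placed in the genome and are named by their numbers.

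H1299 is a line of non-small cell lung cancer and HCT116 a line of colorectal cancer. Each received the solvent DMSO, or DAC (decitabine, an inhibitor of DNA methyltransferases) at 500 nM for 72 h together with SB939 (an inhibitor of histone deacetylases) at 500 nM for 18 h. Compounds were renewed with the medium every 24 h, cells of all groups were at passage 5 to 10, and the groups are called control (labelled DMSO) and treated (labelled DAC+SB). The 5′ chemistry of 10x Genomics, which reads polyadenylated RNA from its 5′ end, gave 1 library per combination of line and treatment, so no difference below has a replicate check, no test was made, and all intervals are 95% intervals for counting error only.

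THE1 elements belong to the mammalian apparent LTR retrotransposons, a group with links to the ERVL endogenous retroviruses. It also holds the MST elements and many, but not all, elements with MLT names. An LTR carries a promoter, and most copies are solitary LTRs that have lost the internal part between them; names ending in -int are such internal parts. THE1A is held to be the youngest of the lettered LTR families and THE1D the oldest. In most somatic cells such LTRs are kept silent by DNA methylation and by repressive chromatin that includes deacetylated histones. A known exception is CSF1R, the receptor of the macrophage growth factor CSF1, which is transcribed from a THE1B LTR in Hodgkin lymphoma.

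The libraries held 3578 control H1299, 3726 treated H1299, 3658 control HCT116 and 4327 treated HCT116 cells, with summed gene and TE counts between 38927267 (treated HCT116) and 64524196 (control H1299). The median count per cell was 8449 in treated HCT116 and 15784.5 to 17369.5 in the other libraries. Median mitochondrial shares were 8.33% and 8.87% in H1299 (DMSO first) and 15.8% and 18.6% in HCT116. Of 10 H1299 marker genes, 9 were higher in H1299 under both treatments, and of 9 HCT116 marker genes, 8 were higher in HCT116 under DMSO and 6 under treatment. The summed H1299 markers stood at 2905 and 1414 counts per 1000000 gene and TE counts (CPM) in H1299 against 234 and 336 in HCT116. The summed HCT116 markers stood at 124 and 82.8 CPM in HCT116 against 1.10 and 35.6 in H1299. CDH17 had no count in either control library, and under treatment CDH17, LGALS4 and CLDN3 were not higher in HCT116. Any pair of libraries shared between 18 and 30 cell barcodes.

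THE1 transcripts were rare under DMSO and abundant under treatment in both lines. The THE1 level was 80.9 CPM (78.7 to 83.1, 5220 counts) in control H1299 and 2046 CPM (2035 to 2057, 127731 counts) in treated H1299. In HCT116 it was 243 CPM (239 to 247, 15226 counts) under DMSO and 4692 CPM (4670 to 4714, 182644 counts) under treatment. HCT116 was thus the higher line under both treatments. The DAC+SB to DMSO ratio was 25.3 (24.6 to 26.0) in H1299 and 19.3 (19.0 to 19.6) in HCT116, or 4.66 (4.62 to 4.70) and 4.27 (4.25 to 4.29) on the log2 scale.

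THE1 was also a larger share of TE counts under treatment in both lines. That share was 4.07% (3.96 to 4.18) in control H1299 and 6.61% (6.58 to 6.65) in treated H1299. In HCT116 the shares were 7.62% (7.50 to 7.73) and 8.43% (8.39 to 8.47). All TE other than THE1 had DAC+SB to DMSO ratios of 15.2 in H1299 and 17.3 in HCT116. The related MST elements had ratios of 10.6 and 8.57, or 4.10 and 8.48 over names and positions listed under both treatments, and MLT elements 2.07 and 4.83, or 2.31 and 2.18. LTR12 elements, the LTRs of another endogenous retrovirus, stood far above, with log2 ratios of 6.66 and 5.91. They made up 66.2% of TE counts in treated H1299 and 57.6% in treated HCT116, against 10.2% and 16.7% under DMSO. Most treated counts of all TE other than THE1 were therefore LTR12 counts. With LTR12 left out as well, the remaining TEs had a ratio well below that of THE1 in both lines. THE1 thus lay between its MST relatives and LTR12 in both lines.

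A family at 1 position number is called a class here. Some classes were listed in one library and not in another, and an unlisted class is not a count of 0. A locus count below covers the listed classes, so that a DMSO count of 0 means no count in those. Of 13 THE1 classes, 6 were listed in control H1299, 9 in treated H1299, 7 in control HCT116 and 12 in treated HCT116. Over the 5 classes listed in both H1299 libraries the THE1 ratio was 23.3, and over the 7 listed in both HCT116 libraries it was 18.6. Those classes held 85.7% and 96.6% of the treated THE1 counts.

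Among the LTR families, THE1B was the most abundant under treatment in both lines and THE1A the least. THE1B stood at 24.6 CPM in control H1299, 971 in treated H1299, 130 in control HCT116 and 2067 in treated HCT116. THE1D stood at 8.63, 422, 74.6 and 1163 CPM in the same order. THE1C and THE1D had nearly the same treated level in H1299, whereas THE1D was the higher of the pair in HCT116. THE1C stood at 40.9, 427, 18.1 and 739 CPM. THE1A stood at 3.70, 223, 11.5 and 637 CPM. With DMSO the 2 lines differed in their leading family, which was THE1C in H1299 and THE1B in HCT116.

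**Figure D1:**
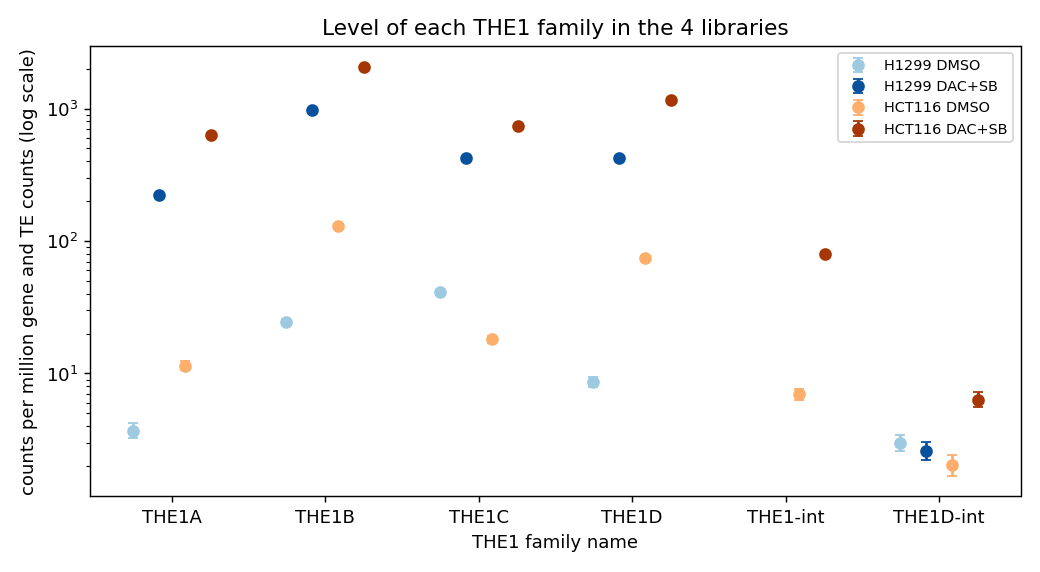
Level of each THE1 family name in the 4 libraries, as CPM on a log scale. Points are single libraries, bars are exact 95% Poisson intervals that cover counting error only, and THE1-int has no H1299 points because it was unlisted there; THE1A to THE1D are higher under treatment in both lines, and THE1D-int stays below 10 in every library.

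The families differed in how far treated and control libraries stood apart. THE1A had the most even contrast, with log2 ratios of 5.91 (5.73 to 6.10) for H1299 and 5.80 (5.69 to 5.90) for HCT116, and the H1299 minus HCT116 difference of 0.12 (-0.10 to 0.33) lay within counting error. THE1B had 5.30 (5.23 to 5.37) for H1299 and 3.99 (3.96 to 4.02) for HCT116. THE1D had 5.61 (5.49 to 5.74) and 3.96 (3.92 to 4.01), although its class at position 10 was unlisted in control H1299 and the H1299 value over the shared class was 4.92. THE1C ran the other way, with 3.38 (3.33 to 3.44) in H1299 and 5.35 (5.27 to 5.44) in HCT116. The line with the lower ratio was in each of these 3 cases the line with the higher DMSO level of that family. Since the DMSO level is the denominator of the ratio, the 2 are not independent. THE1A, with nearly equal ratios, also had a higher DMSO level in HCT116 (11.5 CPM) than in H1299 (3.70 CPM).

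The 2 internal names were minor. THE1-int was listed in HCT116 only, at 438 counts under DMSO and 3103 under treatment, a log2 ratio of 3.51. THE1D-int had 194 and 163 counts in H1299 (log2 ratio -0.20, -0.51 to 0.10), and 127 and 247 counts in HCT116 (log2 ratio 1.65, 1.33 to 1.97). In HCT116, 30.8% of the treated THE1D-int counts came from a class that was unlisted under DMSO, and the log2 ratio over the shared class was 1.12. THE1D-int was therefore the one name that did not reach a ratio of 4 in either line by library totals. As a mean over cells of the share per cell, its log2 ratio in HCT116 was 2.28, above 4-fold. By library totals 4 of 5 THE1 names in H1299 were at least 4-fold higher under treatment, against 22.6% of 186 TE families tested. In HCT116 5 of 6 were, against 46.7% of 199 TE families.

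The DMSO levels came from very few loci. In control H1299, 785 THE1 loci had a count, 511 of them a single count, and the top 10 loci by count held 65.5% (64.2 to 66.8) of THE1 counts. In control HCT116, 1027 loci had a count, 605 of them a single count, and the top 10 held 76.1% (75.4 to 76.8). One locus alone gave 38.1% of THE1 counts in control H1299 and another gave 42.1% in control HCT116. A share of 50% of the counts was reached with 3 loci in control H1299 and with 2 in control HCT116.

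With DAC+SB the counts were spread over many more loci. In treated H1299 4972 loci had a count, the top locus held 3.65% and the top 10 held 17.7% (17.5 to 17.9). In treated HCT116 6504 loci had a count, the top locus held 5.37% and the top 10 held 18.1% (17.9 to 18.3). It took 75 loci in H1299 and 99 in HCT116 to reach 50% of the counts. Thinned to the total of the shallowest library, the loci with a count numbered 565 in control H1299, 4098 in treated H1299, 758 in control HCT116 and 6504 in treated HCT116. Loci with at least 100 counts numbered 4, 241, 12 and 323 in the same order of libraries, and loci with at least 1000 counts 1, 17, 2 and 21. Depth was not thinned for these last counts, and the treated HCT116 library, with the most such loci, was the shallowest.

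**Figure D2:**
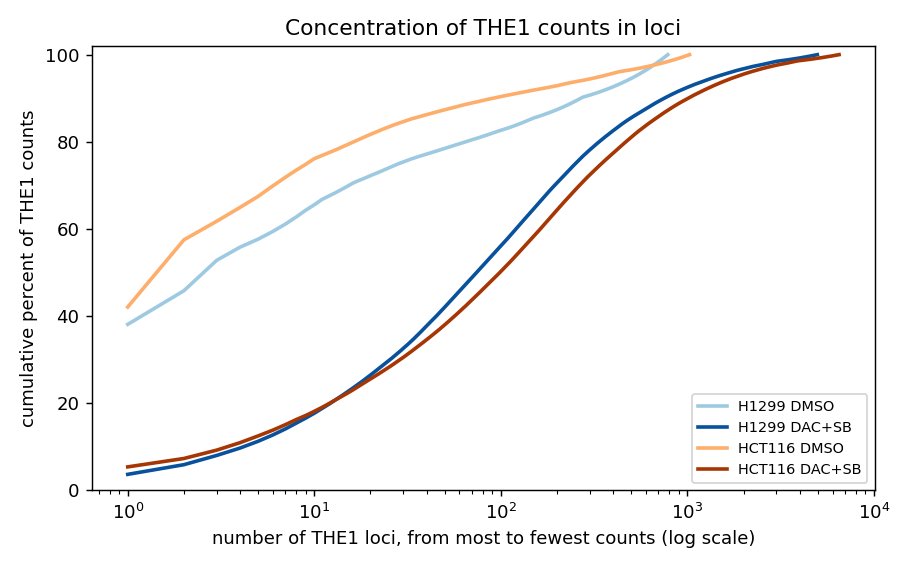
Cumulative percent of THE1 counts (vertical axis) against the number of THE1 loci taken from most to fewest counts (log scale), 1 line per library. The top 10 loci hold 65.5% and 76.1% of the counts in the control libraries and 17.7% and 18.1% in the treated libraries.

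The THE1 loci with most DMSO counts were not the same in the 2 lines. None of the 4 loci with at least 100 counts in control H1299 was among the 12 such loci in control HCT116. At 10 counts or more the lists held 34 and 70 loci and shared 7, which is 20.6% of the H1299 list and 10.0% of the HCT116 list. Over all TE loci the shares at that minimum were 35.9% of 1603 loci and 28.6% of 2014, and over LTR12 loci 43.3% of 60 and 19.1% of 136. A locus counted only in a class unlisted in the other line, such as THE1-int in H1299, could not be shared. Most loci on these lists were also counted at least 10 times in the treated library of their own line, 29 of 34 in H1299 and 65 of 70 in HCT116.

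The control H1299 library was led by THE1C locus 2304275, with 1988 counts under DMSO and 1987 under treatment in H1299, and 18 and 517 in HCT116. Its level was the same in both H1299 libraries within counting error (log2 ratio 0.05, -0.04 to 0.14), while in HCT116 it was 46.2-fold (29.0 to 78.6) higher under treatment. It made up 75.3% of THE1C counts in control H1299. THE1B locus 2315814 followed the same pattern, with 403 and 350 counts in H1299 (log2 ratio -0.16, -0.37 to 0.05) and 11 and 665 in HCT116 (log2 ratio 6.60, 5.76 to 7.61). THE1D locus 5883 had 365 and 305 counts in H1299 (log2 ratio -0.21, -0.44 to 0.01), and 0 and 131 in HCT116, at least 70.3-fold higher with 0 set to 3 counts. All 3 loci were thus counted in untreated H1299 at about their treated level, and had at most 18 counts in untreated HCT116.

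The remaining loci of that group moved further in H1299. THE1B locus 2114348 had 157 and 223 counts in H1299 and 18 and 355 in HCT116, log2 ratios of 0.55 and 4.99. THE1B locus 6299479 had 96 and 311 counts in H1299 and 3 and 67 in HCT116, log2 ratios of 1.74 and 5.17. In both, the contrast was again larger in HCT116, where the DMSO count was lower. The 5 loci with most counts in control H1299 were also the 5 lowest ratios in H1299. Their smaller contrast in H1299 than in HCT116 is thus part of how they were chosen.

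The control HCT116 library was led by THE1B locus 830287, with 6405 counts under DMSO and 3520 under treatment, against 27 and 153 in H1299. Relative to library totals the log2 ratios are -0.18 (-0.24 to -0.12) for HCT116 and 2.55 (1.95 to 3.20) for H1299. The locus made up 78.7% of THE1B counts in control HCT116. THE1D locus 3361176 had 2348 and 1732 counts in HCT116 (log2 ratio 0.25, 0.16 to 0.34) and 16 and 791 in H1299 (5.68, 4.97 to 6.49), and made up 50.3% of THE1D counts in control HCT116. These loci mirror the H1299 ones: high in untreated HCT116, with a treated level close to it, and far lower in untreated H1299. They too were chosen for a high DMSO count and were among the 5 lowest ratios in HCT116. This pattern is thus part of how they were chosen.

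Some loci of lower count in HCT116 were similar. THE1C locus 3911272 and THE1D loci 3762719 and 4066152, given next, were among the 5 lowest ratios in HCT116. Their small contrasts there are thus part of how they were chosen. THE1C locus 3911272 had 483 and 437 counts in HCT116 (log2 ratio 0.54) and 3 and 169 in H1299 (5.86). THE1D locus 3762719 had 651 and 655 counts in HCT116 (0.70), and 114 in treated H1299, all at position 10, a class unlisted in control H1299. THE1D locus 4066152 had 368 and 326 counts in HCT116 (0.51), with 0 and 6 in H1299. The internal locus THE1-int 4052886, in a family unlisted in H1299, had 385 and 1568 counts in HCT116 (2.71, 2.55 to 2.88). It made up 87.9% of the THE1-int counts in control HCT116 and 50.5% in treated HCT116. Other loci with at least 100 control HCT116 counts also moved further, such as THE1C locus 4751119 (248 and 2832 counts, log2 ratio 4.20). THE1A locus 3679569 had 300 and 821 counts in HCT116. Over all 12 loci with at least 100 counts in control HCT116 the median log2 ratio was 1.89 and 1 locus was lower under treatment, and over the 4 such loci of H1299 the median was -0.05 and 2 were lower.

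**Figure D3:**
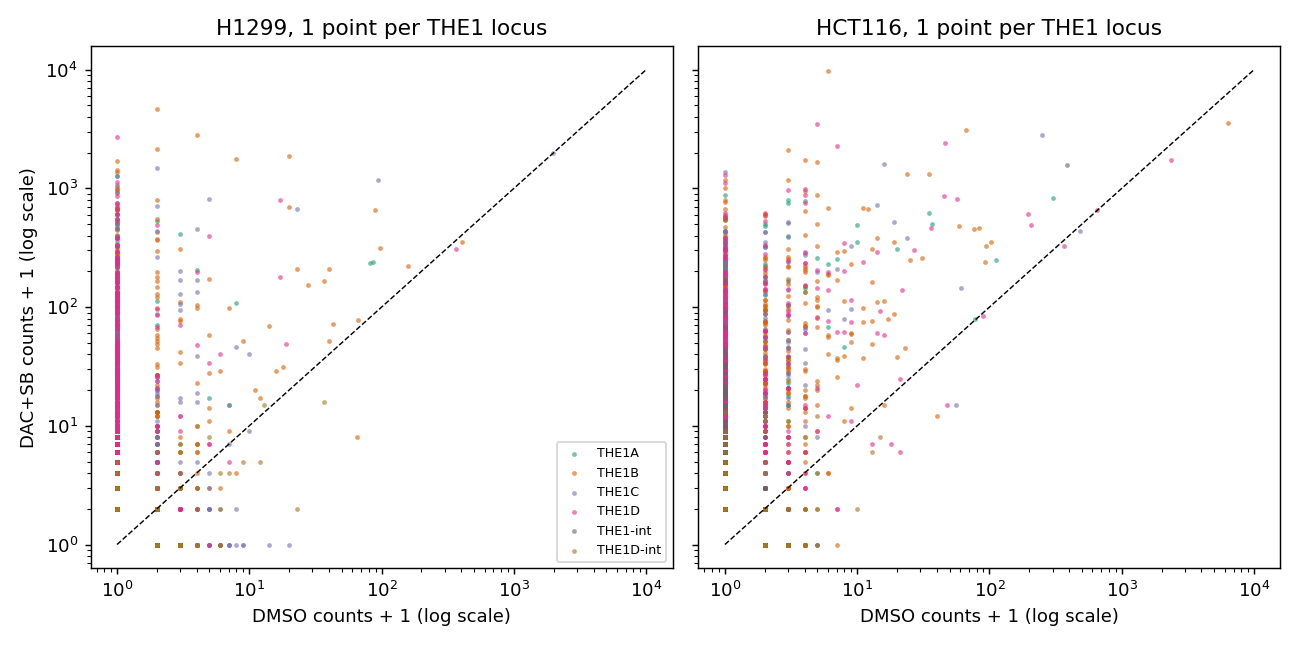
Counts of each THE1 locus under DMSO (horizontal axis) and under treatment (vertical axis) in H1299 (left) and HCT116 (right), both as count + 1 on log scales, coloured by family name, with the dashed line at equal counts. Most loci stand at the left edge, with few or no DMSO counts, and the loci far to the right lie near the line or above it, such as the HCT116 loci at 6405 and 3520 counts and at 248 and 2832; counts are not scaled to library totals.

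Well-counted THE1 loci were then compared one by one. Loci whose class was listed under both treatments, and whose higher count was at least 100, numbered 214 in H1299 and 318 in HCT116. In H1299, 207 of them (96.7%) were at least 4-fold higher under treatment, against 90.7% of 1302 TE loci, and in HCT116 310 (97.5%), against 94.2% of 1999 TE loci. No THE1 locus was at least 4-fold lower in either line, against 0.154% and 0.35% of the TE loci. With loci at 0 set to 3 counts, the median log2 ratio was 6.19 (interquartile range 5.43 to 7.22) in H1299 and 6.76 (6.01 to 7.76) in HCT116, beside 6.67 and 6.94 over all TE loci tested. Only 4 H1299 and 12 HCT116 loci reached 100 counts under DMSO, so most loci entered through the treated library alone, which favours a high ratio. The THE1 shares and medians lay near those of all TE loci tested, which entered in the same way. Those TE loci include the THE1 loci themselves and many LTR12 loci. TE loci of other kinds were not compared apart from these.

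Where the treated counts came from can be read from each locus's DMSO count. In H1299, over shared classes, 69.8% of treated THE1 counts came from 3938 loci with no count under DMSO, and 21.3% from 591 loci with 1 to 9 counts. The 4 loci with at least 100 DMSO counts held 59.7% of DMSO counts and 2.60% of treated counts, with 2902 counts before and 2851 after (log2 ratio 0.02, -0.05 to 0.10). In HCT116, 43.1% of treated counts came from 5235 loci with no DMSO count and 37.0% from 957 loci with 1 to 9. The 12 loci with at least 100 DMSO counts held 77.5% of DMSO counts and 7.70% of treated counts, with 11803 and 13571 counts (log2 ratio 0.89, 0.85 to 0.92). The loci that supplied most of the control signal thus supplied little of the treated signal in both lines. Grouping loci by their DMSO count favours such a result, and the removal of such loci among all TE is given next.

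Leaving out all 16 of these loci in both lines raised the log2 ratio of each LTR family except THE1A in H1299 (5.91 before, 5.88 after), and changed the order of the families in H1299 but not in HCT116. The THE1 log2 ratio became 5.80 (5.74 to 5.86) in H1299 and 6.32 (6.27 to 6.37) in HCT116. The difference between the lines, H1299 minus HCT116, turned from 0.39 (0.34 to 0.44) over all loci to -0.52 (-0.60 to -0.44). Which line showed the larger THE1 ratio thus depended on whether these 16 of 9070 loci were counted. The THE1C log2 ratio became 5.21 in H1299 and 6.71 in HCT116, THE1B 5.95 and 6.25, THE1D 7.18 and 6.21, and THE1A 5.88 and 6.96. Removing loci for a high DMSO count raises a ratio by construction, and leaving out the 247 such loci among all TE gave log2 ratios of 4.65 and 4.78, against 3.96 and 4.12 with them. Over the classes listed under both treatments, the same removal gave THE1 log2 ratios of 5.81 in H1299 and 6.26 in HCT116, with THE1C at 6.13 and 6.58 and THE1D at 6.46 and 6.21. MST stood at 1.47 and 4.73 and LTR12 at 9.34 and 8.38 on that basis. Over all classes MST in H1299 was at 6.66, above THE1, but there only 410 of its 19403 treated counts lie in classes listed in control H1299.

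Several of the strongest loci under treatment had almost no DMSO count, unlike 2304275, 830287 and 3361176 above, which were also among the 10 highest of a treated library. THE1B locus 5165247, the highest in treated H1299, had 1 and 4667 counts in H1299 and 2 and 2120 in HCT116, ratios of 4824 (865 to 190565) and 1706 (472 to 14094). THE1B locus 785725, the highest in treated HCT116, had 5 and 9801 counts in HCT116, a ratio of 3154 (1351 to 9717), but only 702 counts in treated H1299, with 0 under DMSO. THE1D locus 5588519 had 0 and 2714 counts in H1299 and 4 and 3512 in HCT116, a ratio of 1413 (551 to 5188) in HCT116 and at least 361-fold higher in H1299 over the class listed in both libraries. THE1B locus 1132039 had 1 and 2165 counts in H1299 and 2 and 1170 in HCT116, log2 ratios of 11.13 and 9.88. These 4 loci had at most 5 counts under DMSO and at least 702 under treatment in each line.

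Several further loci were high in both treated lines. THE1B locus 1993892 had 3 and 2832 counts in H1299 and 66 and 3123 in HCT116, log2 ratios of 9.93 and 6.25. THE1B locus 2930657 had 7 and 1763 counts in H1299 and 34 and 1313 in HCT116, 8.02 and 5.96. THE1B locus 6300956 had no DMSO count in either line, with 1706 counts in treated H1299 and 1010 in treated HCT116. It was at least 8.68 higher on the log2 scale in H1299 and at least 8.49 in HCT116 over the shared class. THE1B loci 4629954 (0 and 1428 counts in H1299, 1 and 591 in HCT116) and 2887163 (0 and 1386, 1 and 614) were alike in their counts.

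Other named loci differed more between the treated lines. THE1B locus 2122648 had 19 and 1860 counts in H1299 and 0 and 153 in HCT116, treated levels of 29.8 and 3.93 CPM. THE1D locus 2432380 had 0 and 110 counts in H1299 and 45 and 2426 in HCT116, treated levels of 1.76 and 62.3 CPM. THE1B locus 582863 had 0 and 232 counts in H1299 and 3 and 1725 in HCT116, 3.72 and 44.3 CPM under treatment. With THE1D locus 845791 (0 and 726, 6 and 2290 counts, 11.6 and 58.8 CPM under treatment), these loci stood more than 4-fold apart between the treated lines.

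A further 4 named loci differed by less than 4-fold between the treated lines. THE1C locus 14277 had 1 and 715 counts in H1299 and 2 and 139 in HCT116, 11.5 and 3.57 CPM under treatment. THE1B locus 4809350 had 1 and 790 counts in H1299 and 0 and 258 in HCT116, 12.7 and 6.63 CPM. THE1C locus 4751119 had 0 and 1273 counts in H1299 and 248 and 2832 in HCT116, 20.4 and 72.8 CPM. THE1D locus 1025211 had 0 and 383 counts in H1299 and 1 and 613 in HCT116, 6.13 and 15.7 CPM.

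Between the treated lines, many loci were in use in both but at different levels. At 10 counts or more, 1011 loci in H1299 and 1503 in HCT116 shared 761, which is 75.3% of the H1299 list and 50.6% of the HCT116 list. For LTR12 loci the shares were 93.2% and 74.1%, and for MST loci 66.1% and 52.8%. Over all TE loci they were 62.3% and 40.0%, so the THE1 shares lay above those of all TE loci and below those of LTR12. These lists were not limited to classes listed in both lines. A locus counted only in a class unlisted in the other line, such as THE1-int in H1299, could not be shared. How far this affects the order of the shares was not tested. The top 10 THE1 loci of the treated lines had 3 in common and the top 100 had 47, against 5 and 46 for LTR12. Loci in classes listed in both treated libraries, with at least 100 counts in the library of higher level, numbered 385. Of these, 172 (44.7%) were at least 4-fold higher in HCT116, against 39.1% of 2492 TE loci, and 25 (6.49%) in H1299, against 6.86%. The other 188 differed by less than 4-fold, and the shares for THE1 loci were close to those for all TE loci tested. Those TE loci include the THE1 loci themselves and many LTR12 loci. Over classes listed in both treated libraries, 1377 LTR12 loci had at least 100 counts in either.

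Classes listed in both treated libraries held 394 THE1 loci with at least 100 counts in either. Across these, the log2 counts + 1 of the lines correlated at 0.105 (Pearson) and 0.161 (Spearman), against 0.509 and 0.534 over 1377 LTR12 loci. Across the 761 loci with at least 10 counts in both treated libraries, the log2 counts of the lines correlated at 0.593 (Pearson) and 0.527 (Spearman). Across 2059 LTR12 loci chosen in the same way the values were 0.748 and 0.719. At 100 counts in both, the values were 0.392 and 0.324 over 167 THE1 loci, and 0.615 and 0.570 over 846 LTR12 loci. The points of each correlation are loci of 1 pair of libraries and are not independent replicates, and a count minimum in both lines leaves out the loci seen in 1 line alone. The value therefore depended on how loci were chosen, from 0.105 to 0.593 for THE1.

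The position number at which a THE1 locus was counted was compared between the lines as well. Most THE1 counts were at position 10 (78.8% in control H1299, 80.7% in treated H1299, 74.2% in control HCT116 and 80.2% in treated HCT116), and nearly all others in the treated libraries were at position 11 (19.2% and 17.9%). THE1A, THE1B and THE1C were counted mostly at position 10, with 12.1%, 6.61% and 9.39% of their counts at position 11 in treated H1299 and 4.09%, 3.50% and 7.59% in treated HCT116. For all 3 the share over all loci was higher in H1299. The THE1C counts at position 11 were 2503 in treated H1299 and 2185 in treated HCT116. THE1C locus 2729749, with 92.0% of 1471 counts and 93.2% of 722 counts there, made up a large part of them. Without this locus the THE1C share was lower in H1299 than in HCT116, so the order of the lines for THE1C rested on it. THE1D was the exception, with 61.9% (61.3 to 62.5) at position 11 in treated H1299 and 59.1% (58.7 to 59.6) in treated HCT116. In the control libraries the position 11 classes of THE1A, THE1B and THE1C were unlisted, and 355 THE1C counts at position 9 were listed in control H1299 only, so positions were compared between the treated libraries alone.

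The THE1D split was also seen within single loci. Among THE1D loci with at least 100 counts, the median locus had 68.2% (interquartile range 37.7 to 93.2) of its counts at position 11 in treated H1299 and 58.7% (30.9 to 89.3) in treated HCT116. In H1299, 6 of 57 such loci were below 10% and 18 above 90%, while 33 used both positions. In HCT116 11 of 80 were below 10%, 20 above 90%, and 49 between. In the other families most loci were below 10%: in H1299, 29 of 33 THE1A, 93 of 104 THE1B and 44 of 47 THE1C loci, and in HCT116 58 of 61, 122 of 128 and 48 of 51.

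THE1D loci had much the same mix in both lines. THE1D locus 5588519 had 38.6% of its counts at position 11 in treated H1299 and 36.6% in treated HCT116, locus 3361176 had 93.2% and 93.8%, and locus 1025211 had 73.9% and 74.4%. Locus 2432380 moved more, from 45.5% of 110 counts in H1299 to 58.9% of 2426 in HCT116. THE1C locus 2729749 went against its family, with 92.0% and 93.2% at position 11. Over 41 THE1D loci with at least 100 counts in both treated libraries, the median absolute difference between the lines was 2.10 percentage points, 38 lay within 10 points, and the Pearson and Spearman correlations were 0.985 and 0.979. The other families give little room for such a comparison, since most of their loci lie below 10% in both lines.

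**Figure D4:**
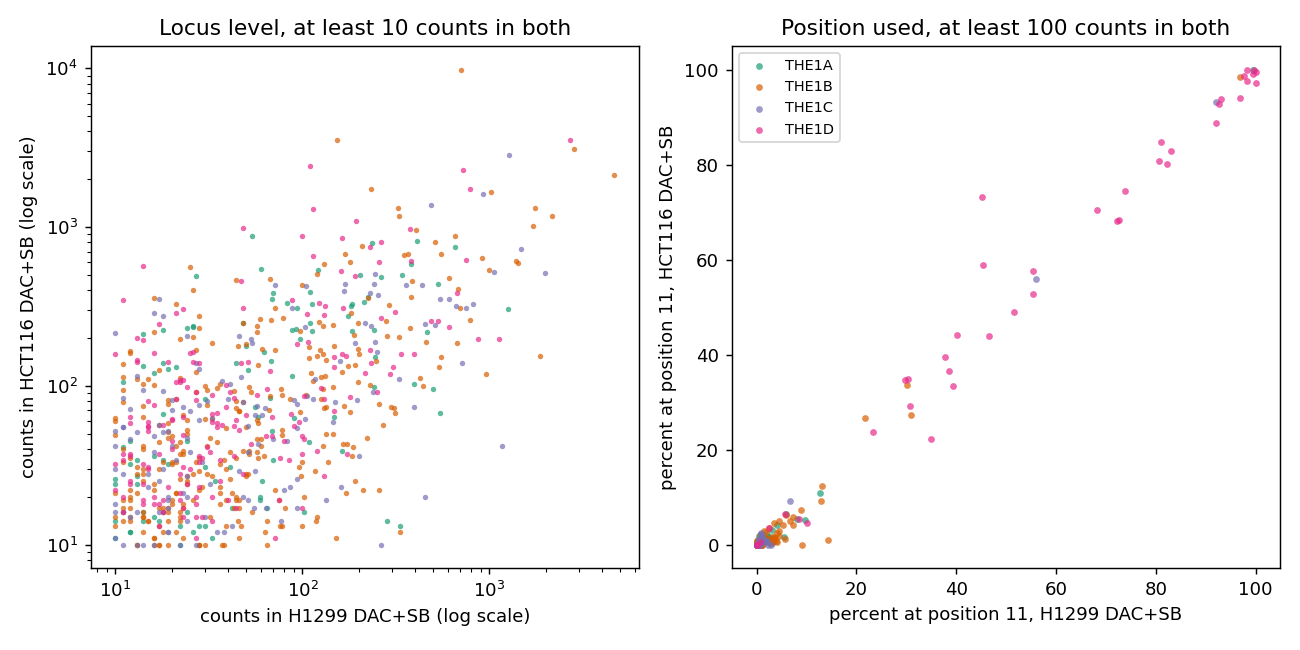
THE1 loci in the treated libraries of the 2 lines, coloured by family. Left, counts per locus in H1299 and HCT116 (log scales) for the 761 loci with at least 10 counts in both; right, percent of a locus's counts at position 11 rather than 10 for the 167 loci with at least 100 counts in both, where the THE1D loci cover the whole range, 38 of 41 within 10 points of equality, and most others lie near 0.

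Locus 2729749 shows what the unlisted classes can do to a ratio. It had 1 and 1471 counts in H1299 and 13 and 722 in HCT116, log2 ratios of 10.57 and 6.48 over all classes. Its main class, THE1C at position 11, was unlisted under DMSO in both lines. Over the shared class at position 10 the log2 ratios were 6.92 and 2.60.

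In single cells at equal depth, THE1 counts were found in 21.9% to 49.9% of control cells and in nearly all treated cells. After each cell was thinned to 3300 counts, which left out 402 treated HCT116 cells and none elsewhere, 21.9% (20.5 to 23.3) of control H1299 cells and 97.0% (96.5 to 97.6) of treated H1299 cells had a THE1 count. In HCT116 the shares were 49.9% (48.3 to 51.5) and 99.7% (99.4 to 99.8). Without thinning they were 68.3%, 99.8%, 88.3% and 99.9%, at the median depths given above. No cell type known to lack THE1 transcripts was analysed here, so the background from free RNA was not measured.

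The treated cells also carried many THE1 counts each. The median thinned cell had 0 THE1 counts in both control libraries, 5 (interquartile range 3 to 9) in treated H1299 and 14 (9 to 20) in treated HCT116. The 99th percentile was 2, 25, 4 and 50 in the order control H1299, treated H1299, control HCT116 and treated HCT116, and the highest cell had 5, 39, 9 and 86. Unthinned, the median cell had counts at 1, 20, 2 and 26 THE1 loci in that order. How many of these counts came from free RNA was not tested. The variance over the mean (Fano factor) of the thinned counts was 1.07 and 1.36 in the control libraries, at means of 0.255 and 0.805 counts per cell, and 3.94 and 5.98 under treatment, at means of 6.59 and 15.6. The Fano factor rises with the mean, so relative spread was not compared between treatments.

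**Figure D5:**
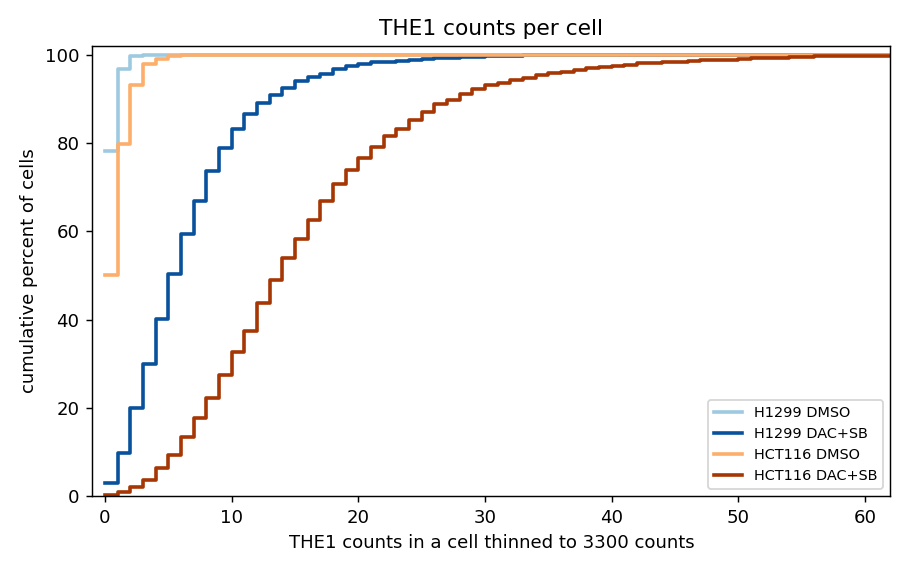
Cumulative percent of cells (vertical axis) with up to a given number of THE1 counts after thinning every cell to 3300 counts, 1 line per library. The control curves, where 2795 and 1833 cells had no THE1 count, end within 9 counts, whereas the DAC+SB curves have medians of 5 (H1299) and 14 (HCT116).

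THE1B was counted in the largest share of treated cells and THE1A in the smallest of the LTR families, as in their levels. THE1B was counted in 7.18% of control H1299, 85.7% of treated H1299, 30.4% of control HCT116 and 97.8% of treated HCT116 cells after thinning. THE1D was counted in 2.68%, 66.3%, 20.9% and 92.9%, and THE1C in 11.7%, 65.8%, 5.49% and 82.6%. THE1A, the least abundant LTR family under treatment, was counted in 1.34%, 45.5%, 3.69% and 78.9%. THE1D-int stayed rare, in 1.06%, 0.886%, 0.465% and 2.01% of cells.

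Single loci reached large parts of the cells too. Unthinned, THE1B locus 785725 was counted in 63.3% (61.9 to 64.8) of treated HCT116 cells and 8.62% (7.73 to 9.56) of treated H1299 cells, and THE1B locus 5165247 in 27.8% (26.5 to 29.2) and 49.5% (47.8 to 51.1). Median depth was lower in treated HCT116. In thinned cells the shares were 44.2% and 2.76% for locus 785725, and 13.8% and 18.5% for locus 5165247, in the same order of lines. THE1C locus 2304275 was counted in 36.7% of control H1299 and 34.9% of treated H1299 cells, but in 0.273% of control HCT116 and 9.68% of treated HCT116 cells. THE1B locus 830287 was counted in 54.7% of control HCT116 and 40.5% of treated HCT116 cells, where median depth was lower, and in 0.447% and 2.82% of H1299 cells. These shares are of cells with a count, with no measured background.

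Loci differed in how unevenly cells carried them. Among loci with at least 500 counts, the median Fano factor after thinning was 1.14 over 52 THE1 loci in treated H1299 and 1.19 over 62 in treated HCT116, beside 1.28 over 464 and 1.59 over 444 LTR12 loci. The LTR12 loci also had more counts per cell, with a median of 0.0648 and 0.0978 thinned counts per locus and cell against 0.0396 and 0.0685 for THE1, and the part of that in the comparison was not tested. THE1B locus 1993892 was among the most uneven, at 1.99 in H1299 and 1.73 in HCT116. Its 2832 counts in treated H1299 came from 20.6% of cells, whereas the 2714 counts of THE1D locus 5588519, with a Fano factor of 1.21, came from 37.7%. THE1-int locus 4052886 had the highest value in treated HCT116, 2.45.

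Cells with more THE1 counts tended to have more counts of other TEs. Across thinned DAC+SB cells, the Spearman correlation of THE1 with LTR12 was 0.367 in H1299 (3726 cells) and 0.285 in HCT116 (3925 cells), with MST 0.367 and 0.381, and with the remaining TEs 0.255 and 0.262. Within THE1, THE1B and THE1D had correlations of 0.341 and 0.468, the highest pair of LTR families in both lines. THE1B and THE1C were nearly equal to that pair in H1299, at 0.339. THE1A and THE1C had the lowest, 0.202 and 0.300. How far the levels of the families shape this order was not tested. The mean THE1 count was 4.45 in the 25% of treated H1299 cells with fewest LTR12 counts and 8.92 in the 25% with most, and 12.2 and 18.9 in treated HCT116. Cells of 1 library share its preparation and a fixed total of counts, so these values describe the libraries and carry no test. The mitochondrial share, which differed between the lines, had correlations with THE1 of 0.01 in H1299 and 0.08 in HCT116, and treated HCT116 cells above 25% mitochondrial counts had a mean of 15.8 THE1 counts (795 cells) against 15.6 (3130 cells) in the others. In treated H1299 the corresponding means were 5.19 (88 cells) and 6.63 (3638 cells).

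CSF1R, the gene with a known THE1B start in Hodgkin lymphoma, was counted rarely. It had 2 counts in control H1299, 34 in treated H1299, 5 in control HCT116 and 165 in treated HCT116, log2 ratios of 4.14 (2.17 to 7.24) and 5.73 (4.48 to 7.37). Whether these counts start in the LTR cannot be told, since no THE1 locus was placed in the genome.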

How the data were processed

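The deposited values are counts per feature and cell, made by the authors, with 1 table for genes and 1 for TEs; the submitters' processing notes name CASAVA, STAR and the builds GRCh38 and hg38. The counting tool, the treatment of reads that fit several copies, whether the counts are molecule (UMI) counts and the cell filter are each not given in the sources used here. Cells were assigned to libraries by the library name in the cell name, and all 15289 cells were used; no doublet caller was run.

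TE counts whose name begins with THE1 were summed per family, position, locus, library and cell, and divided by the library's gene and TE counts, between 38927267 and 64524196 per library. Ratios carry exact conditional binomial intervals, levels exact Poisson intervals, shares Clopper-Pearson intervals, and differences between lines normal-approximation intervals. Families and loci were compared at a minimum of 100 counts in the higher library and a fold of 4; a locus at 0 in a listed class was set to 3 counts. Cells were thinned to 3300 counts. Named loci were the 10 with most counts in each DAC+SB library and the 5 with most in each DMSO library. Added per line were the 5 highest and 5 lowest ratios among loci of classes listed under both treatments. These had at least 100 counts in the higher library. Python 3.11.15, numpy 2.4.6, pandas 2.3.3 and SciPy 1.17.1 were used, and the computation was tested on simulated data. Of the HCT116 markers, 1 is not reported here. The members, lists and rules were chosen with earlier results of these data known. Alternatives varied denominator, classes, loci, cells, thinning and thresholds.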

Additional observations from a re-analysis of the deposited data

Results flagged for a closer look

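In 4 cases the contrast between DAC+SB and DMSO had opposite signs in the 2 lines, each line being 1 library per treatment, and the difference was not tested. THE1D-int had a log2 ratio of -0.20 in H1299, whose interval includes 0, and 1.65 in HCT116. THE1B locus 2315814 had -0.16 in H1299, whose interval also includes 0, and 6.60 in HCT116. THE1D locus 5883 had -0.22 in H1299, where the interval over all classes includes 0, and, with no DMSO count in HCT116, at least 6.13 there, both over classes listed under both treatments. THE1B locus 830287 had 2.55 in H1299 and -0.18 in HCT116.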

How the results depend on the processing

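The THE1 log2 ratio stayed above 0 under every alternative in both lines. In H1299 (4.66) it was 4.70 over gene counts, 0.70 as a share of TE counts, 4.54 over classes listed in both H1299 libraries and also in all 4, 5.33 without the locus with most DMSO counts, 4.61 without that with most DAC+SB counts, and 4.60 as a mean over cells. In HCT116 (4.27) it was 4.35, 0.15, 4.22 and 4.21 for the first 4 of these settings, 5.03 and 4.19 without those loci, and 4.24 without cells above 25% mitochondrial counts. Chosen after seeing the data, leaving out loci with at least 100 DMSO counts gave 5.80 and 6.32, or 5.81 and 6.26 over classes listed under both treatments, and leaving out -int names 4.71 and 4.30. As shares of TE counts, log2 ratios of THE1B (-0.13), THE1D (-0.16), THE1-int (-0.61) and THE1D-int (-2.48) in HCT116 and of THE1C (-0.58) in H1299 turned negative, since that denominator was itself higher with DAC+SB.

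With a minimum of 20 counts, 592 H1299 and 933 HCT116 loci were at least 4-fold higher, against 207 and 310 at 100 counts. A locus with 20 treated counts and no DMSO count, set to 3 counts, passes that fold by construction. The number tested and the share over all TE loci at that minimum are not given here. The larger counts thus say nothing about THE1 relative to other TEs. The shares of cells with a THE1 count (H1299 DMSO, H1299 DAC+SB, HCT116 DMSO, HCT116 DAC+SB) were 68.3%, 99.8%, 88.3% and 99.9% unthinned and 12.3%, 89.0%, 30.0% and 98.6% at 1650 counts; over classes listed in all 4 libraries they were 95.5% in H1299 DAC+SB and 44.5% in HCT116 DMSO. Over those classes the top 10 loci held 70.0%, 18.4%, 77.5% and 18.8%, and without the 5% of cells with most counts they held 17.9% in HCT116 DAC+SB. The loci shared by the treated lines were 60.1% and 45.9% of the H1299 and HCT116 lists at 1 count, and 69.3% of the H1299 list at 100 counts. No paired analysis was possible because each group is 1 library. With 1 library per group no spread between cultures or preparations was measured, and unlisted classes limit most DMSO levels.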
